A study of Homo sapiens with 15 samples.

Results

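The genes described here are 38 genes listed by name: the enzymes of glycolysis with their transporters and regulators, and genes of the cellular response to low oxygen. They were matched by symbol among the 55773 rows of the deposited table, and all 38 were found. By role they comprised 3 transporters of glucose and lactate, 9 enzymes of upper glycolysis, 2 regulators of phosphofructokinase, 6 enzymes of lower glycolysis, 3 genes that set the fate of pyruvate, 2 subunits of the hypoxia-inducible factors (HIF), 2 HIF prolyl hydroxylases and 11 other HIF targets. A gene was tested where 3 or more libraries of the experiment had a value of 10 or higher. In the overexpression experiment 37 members met this, and in the depletion experiment 36. CA9 met it in neither and SLC16A3 only in the first.

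The libraries were RNA-seq of human cells derived from HEK293, a long-established line from human embryonic kidney, in 5 groups with 3 libraries each. The overexpression experiment used doxycycline-inducible transgenes in Flp-In T-REx 293 cells, for the Flag/HA tag alone (control), for Flag/HA-ZC3H7A or for Flag/HA-ZC3H7B. All 3 groups were given doxycycline at 1 µg/mL for 24 h and grew in high-glucose DMEM with 10% serum, zeocin and blasticidin. In the depletion experiment, HEK293 cells with a control shRNA (Parental) were set against cells with a knockout of ZC3H7A and an shRNA against ZC3H7B (DD), and both had been selected with puromycin at 5 µg/mL and released from it 2 passages before collection. ZC3H7A and ZC3H7B are CCCH zinc-finger proteins that bind RNA, and the series asks about codon-dependent regulation by them. The labels name no change of oxygen in any group. The labels do not say whether each transgenic line or the DD cells came from 1 clone, or whether the Parental and DD libraries came from separate cultures, and p-values there measure the spread between these libraries, which may be technical.

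Glycolysis breaks glucose down to pyruvate, which is either turned into lactate by lactate dehydrogenase or oxidised in mitochondria. HIF is a dimer of an oxygen-sensitive alpha subunit, HIF-1α from HIF1A or HIF-2α from EPAS1, and a stable beta subunit. With oxygen present, prolyl hydroxylases of the EGLN family mark the alpha subunits for destruction. Without it the dimer binds hypoxia response elements and raises many glycolytic genes together with genes for blood vessel growth, pH control and mitophagy. Transformed cells such as HEK293 run glycolysis at a high rate in air.

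The overexpression libraries held 45.5 to 57.6 M reads each and the depletion libraries 12.2 to 15.5 M. The 2 experiments used different library protocols and were tested apart. The mean normalized read count of ZC3H7A was 11192 with the ZC3H7A transgene against 3259 in the control, and that of ZC3H7B was 27142 with its transgene against 5938. In DD, ZC3H7B was at 1084 against 6463 in Parental, whereas ZC3H7A reads did not differ by the test (1658 against 1599, limma adjusted p = 0.666). The labels do not give the lesion of the ZC3H7A knockout, and the RNA level alone does not show whether the protein was lost, so the knockout is given as labelled and was not checked here. Of 6 markers of the HEK293 line, 6 had a mean of at least 10 in each overexpression group and 5 in Parental and DD. PTPRC and CD3E of leukocytes and COL1A2 of fibroblasts had means under 1 in every group. CD14, another of the 5 leukocyte markers, had a mean of at least 10 in every group. Of 4 endothelial markers, VWF had such a mean in DD, and none did in the other groups. The summed level of 6 fibroblast markers, of which 2 in the control and 3 with ZC3H7A or ZC3H7B had a mean of at least 10, was 194.1 to 229 in the control, 303 to 326 with ZC3H7A and 297 to 348 with ZC3H7B. Its part in the results below was not tested. The third Parental library lay farthest from its group: its median absolute log2 distance from the other 2 was 0.195, and it held the highest value of the group for 24 of the 38 members. Such a lean was not peculiar to it. Parental library 1 held the lowest value of its group for 25 members. ZC3H7A library 1 held the highest for 24, and ZC3H7A library 3, at a distance of 0.16, the lowest for 23.

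Most glycolytic members were higher in both overexpressions, whereas HIF1A, SLC2A3, SLC16A3, PDK1 and ANKRD37 were lower in both. With ZC3H7A, 22 of the 37 tested members rose, where 34.7% of all 17673 genes tested did, and 8 fell, where 41.2% of all genes did (limma, Benjamini-Hochberg adjusted p under 0.05). The median log2 fold change was 0.33 over the members and -0.07 over all genes. With ZC3H7B, 24 members rose and 8 fell, beside 32.0% and 37.6% of all genes, and the medians were 0.34 and -0.06. These 2 comparisons share their control libraries. Set directly against each other, ZC3H7A was higher than ZC3H7B for 14 members (23.9% of all genes) and lower for 5 (20.4% of all genes), with a median difference of 0.10 over the members and 0.01 over all genes. In DD, 7 of 36 tested members rose and 6 fell, close to the 14.7% and 14.8% of all 18494 genes tested, and the member median was 0.00. Without the third Parental library, 12 members rose and 7 fell in DD, and without the first DD library, 4 rose and 6 fell. The calls over all 18494 genes moved too. With all libraries 2716 rose and 2732 fell, without the third Parental library 3527 and 3293, and without the first DD library 1583 and 2003. With values scaled to library totals the median over all genes with ZC3H7A was -0.18 instead. Groups that do not overlap were common over all genes. With ZC3H7A this held for 30 of 37 members and 13768 of 17673 genes, and with ZC3H7B for 35 members and 13630 genes. Between the overexpressions it held for 18 members and 8694 genes, and in DD for 15 of 36 members and 7960 of 18494 genes. Read counts from bulk RNA do not tell fewer cells with a transcript from less of it per cell.

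**Figure D1:**
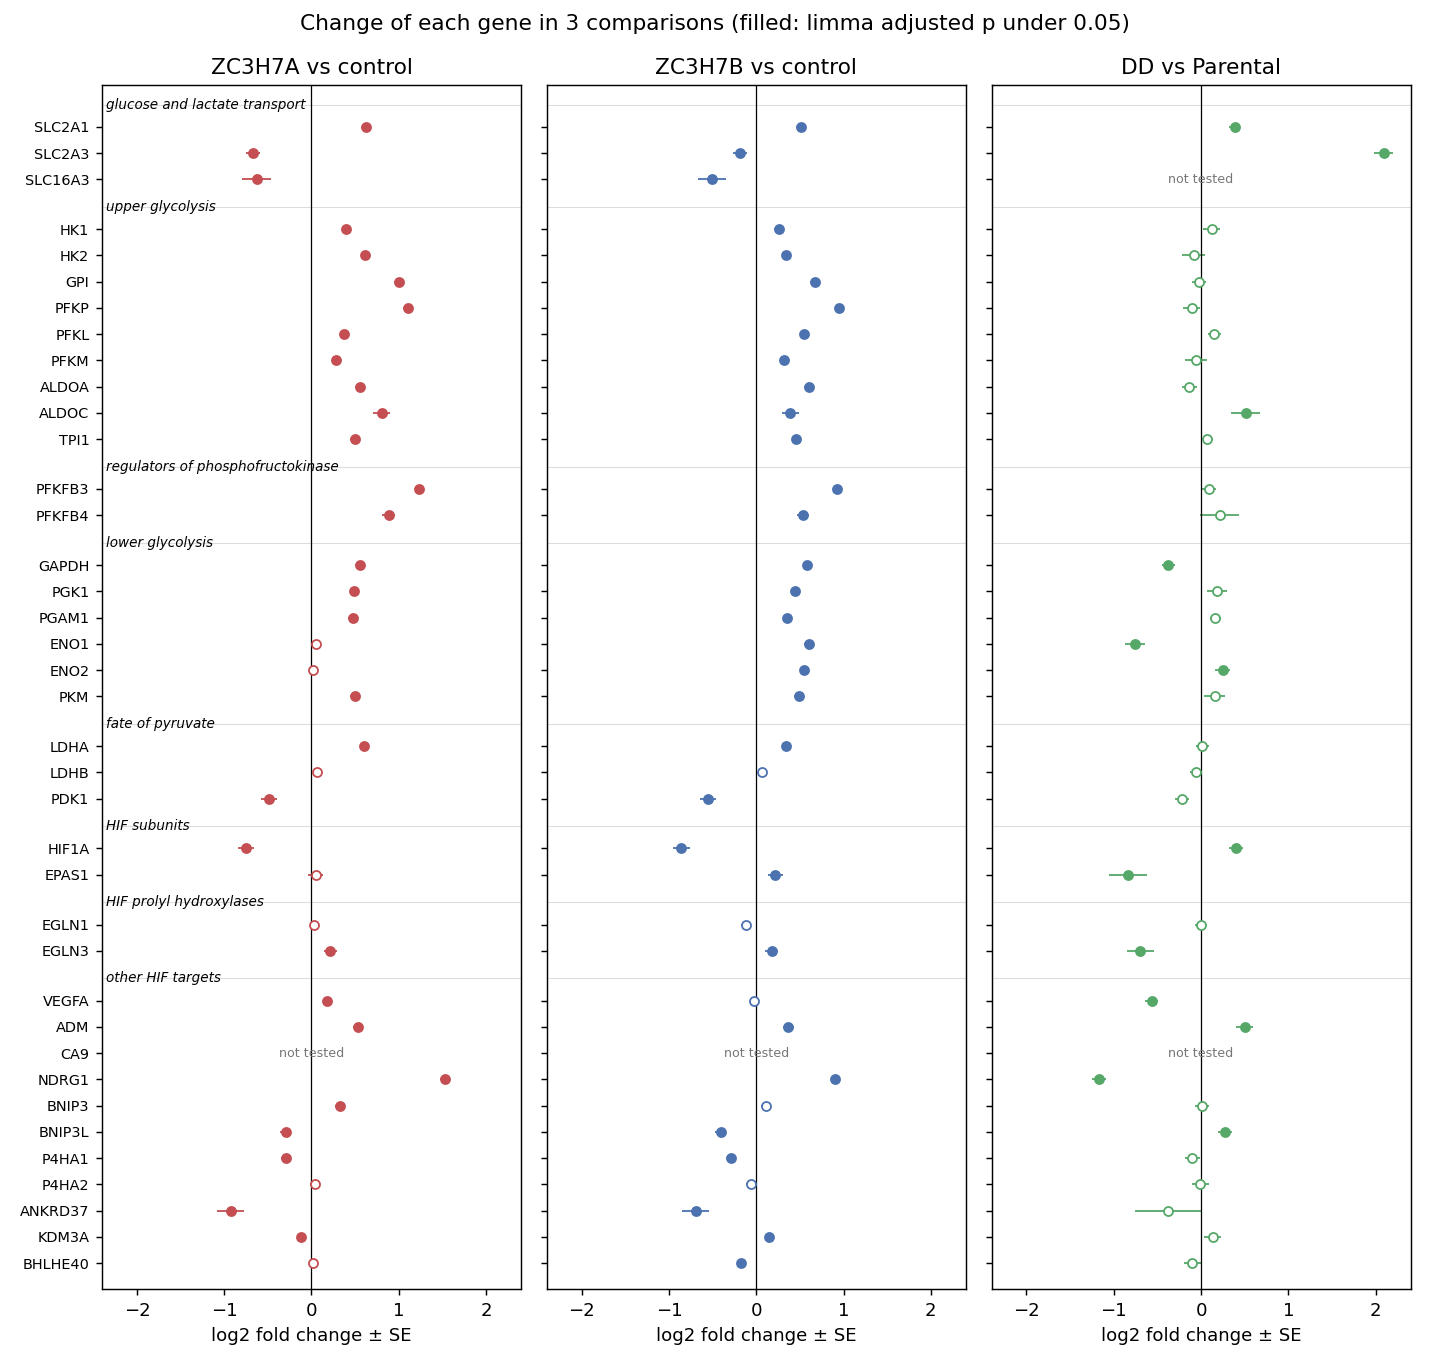
Log2 fold change ± SE of each member in ZC3H7A against control, ZC3H7B against control and DD against Parental, by role, with filled points at a limma adjusted p under 0.05. The 9 enzymes of upper glycolysis lie above 0 in both overexpressions, and 8 of the 9 are open points in DD.

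The transporters split by gene. SLC2A1 (GLUT1), the basal glucose transporter of most cells, was higher in both overexpressions and in DD, whereas SLC2A3 (GLUT3), a high-affinity glucose transporter, was lower in both overexpressions and 4.27-fold higher in DD. The normalized read count of SLC2A1 was 2362, 2477 and 2428 in the controls, 3997, 3815 and 3419.9 with ZC3H7A and 3547, 3459.5 and 3364 with ZC3H7B. No control library reached either overexpression group, which overlapped each other. The rise was 0.63 on the log2 scale with ZC3H7A (SE 0.0546, limma adjusted p = 6.61e-07) and 0.51 with ZC3H7B (SE 0.0546, limma adjusted p = 4.94e-06). In the depletion experiment SLC2A1 was 4345, 4393 and 4658 in Parental and 6089.9, 5558 and 5845 in DD (limma log2 fold change 0.38 with SE 0.0649, adjusted p = 0.000997). Every DD library lay above every Parental library. Of the 40 expressed genes nearest to SLC2A1 on chromosome 1, 29 were above 0 with ZC3H7A (median 0.38) and 30 with ZC3H7B (median 0.22). In DD 23 were above 0 (median 0.05), and their part was not tested.

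SLC2A3 was 319.8, 308 and 333 in the controls, 209, 218 and 178 with ZC3H7A and 284, 288 and 270.3 with ZC3H7B. The 3 groups did not overlap, with ZC3H7A lowest. Against the control it fell with ZC3H7A (limma log2 fold change -0.67 with SE 0.0788, adjusted p = 8.43e-06), and it was lower with ZC3H7A than with ZC3H7B (limma log2 fold change -0.48 with SE 0.0788, adjusted p = 4e-04). The fall with ZC3H7B was small (limma log2 fold change -0.19 with SE 0.0788, adjusted p = 0.0482) and was no longer called in 10 of 16 alternatives, among them TMM scaling (adjusted p = 0.302) and leaving out any 1 library (limma adjusted p = 0.059 to 0.148). In Parental SLC2A3 was 179.8, 178 and 192 and in DD 759, 734 and 864, the largest change of any member in DD (limma log2 fold change 2.09 with SE 0.108, adjusted p = 2.22e-07). SLC2A14, a near-identical gene that can share reads with SLC2A3, was at 11.4 to 14.7 in DD and at 0 to 4.49 in the other libraries.

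SLC16A3 (MCT4) exports lactate and was the scarcest tested member per kb of exon. It was 32.8, 33.2 and 37.0 in the controls, 23.1, 17.7 and 25.5 with ZC3H7A and 21.0, 23.6 and 27.0 with ZC3H7B. Both overexpression groups lay below the controls (-0.63 with ZC3H7A, SE 0.163, limma adjusted p = 0.00379, and -0.51 with ZC3H7B, SE 0.163, limma adjusted p = 0.0145). The ZC3H7B call was lost without ZC3H7B library 1 (limma adjusted p = 0.0596) and without control library 3 (0.0551), within a range of 0.00161 to 0.0596 over 15 alternatives. In the depletion experiment it had 1 read over the 3 Parental libraries and 5 over the 3 DD libraries and was not tested.

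All 9 enzymes of upper glycolysis, which split glucose into triose phosphates, rose in both overexpressions, with log2 fold changes of 0.28 to 1.10 with ZC3H7A and 0.26 to 0.95 with ZC3H7B. Over all genes tested, 34.7% rose with ZC3H7A and 32.0% with ZC3H7B. PFKP, the platelet-type phosphofructokinase that commits sugar to glycolysis, rose most. It was 5595, 5649.6 and 5620.1 in the controls, 12908, 12266 and 11144 with ZC3H7A and 11261, 10751 and 10593 with ZC3H7B. The overexpression groups overlapped each other, and every library of both lay above the controls (limma log2 fold change 1.10 with SE 0.0502, adjusted p = 4.32e-09 for ZC3H7A and 0.95, SE 0.0502, limma adjusted p = 2.38e-08 for ZC3H7B). Of the 26 nearest expressed genes on chromosome 10, 20 were above 0 with ZC3H7A (median 0.38) and 23 with ZC3H7B (median 0.44), and their part was not tested. GPI, which turns glucose 6-phosphate into fructose 6-phosphate, was 17812, 17694 and 17990 in the controls, 38090, 36531 and 32543 with ZC3H7A and 29471, 28090 and 27611 with ZC3H7B. The order control, ZC3H7B, ZC3H7A held in every library (limma log2 fold change 1.00 with SE 0.0521, adjusted p = 1.1e-08 for ZC3H7A against control, and 0.33, SE 0.0521, limma adjusted p = 0.000299 for ZC3H7A against ZC3H7B). Of the 40 expressed genes nearest to GPI on chromosome 19, 36 were above 0 with ZC3H7A, at a median of 0.69 on the log2 scale. With ZC3H7B 30 were above 0 (median 0.35), and for ZC3H7A against ZC3H7B 34 were (median 0.36). Their part in the values of GPI was not tested.

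ALDOA, the main aldolase, was 31545, 32455 and 33368 in the controls, 52144, 47635 and 43499 with ZC3H7A and 51360, 49703 and 47126 with ZC3H7B. Both rises were of like size (0.55, SE 0.0583, and 0.61, SE 0.0583), and the difference between the overexpressions did not pass the test (95% interval -0.18 to 0.08 on the log2 scale). Of the 40 expressed genes nearest to ALDOA on chromosome 16, 32 were above 0 with ZC3H7A (median 0.36) and 31 with ZC3H7B (median 0.22). Their part was not tested. ALDOC, the aldolase typical of brain, was 109, 104 and 100.5 in the controls, 214, 173 and 166 with ZC3H7A and 145, 139 and 128 with ZC3H7B. The 3 groups did not overlap, and ZC3H7A stood above ZC3H7B (limma log2 fold change 0.41 with SE 0.0996, adjusted p = 0.00519). It was the only enzyme of upper glycolysis called in DD by limma, at 144, 192 and 169.9 in Parental and 256, 275 and 196 in DD (limma log2 fold change 0.51 with SE 0.166, adjusted p = 0.0363). That call was lost without DD library 1, DD library 2 or Parental library 1 (limma adjusted p = 0.132, 0.14 and 0.113) and with DESeq2 (adjusted p = 0.0551), within a range of 0.019 to 0.140 over 15 alternatives.

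The hexokinases, which trap glucose in the cell, rose by 0.40 (HK1) and 0.62 (HK2) with ZC3H7A and by 0.26 and 0.35 with ZC3H7B, all on the log2 scale. Of these, HK2 was higher with ZC3H7A than with ZC3H7B (limma log2 fold change 0.27 with SE 0.044, adjusted p = 0.000349). Liver-type phosphofructokinase PFKL went the other way, with a smaller rise for ZC3H7A (0.37) than for ZC3H7B (0.55; difference -0.17, SE 0.0535, limma adjusted p = 0.0193). The PFKL difference was not called without ZC3H7B library 1 (-0.16, limma adjusted p = 0.0612) or 2 (-0.15, limma adjusted p = 0.0842), or with only those 2 groups fitted, over a range of adjusted p from 2.14e-06 to 0.0842. Without ZC3H7A library 3 it was called at a smaller size (-0.11). Of the 39 expressed genes nearest to PFKL on chromosome 21, 30 were below 0 for ZC3H7A against ZC3H7B (median -0.25), and their part was not tested. Muscle-type PFKM rose by 0.28 and 0.32, and triose phosphate isomerase TPI1 by 0.50 and 0.46. The rises of HK1 and PFKP were called higher with ZC3H7A than with ZC3H7B by small margins (0.14, limma adjusted p = 0.0498, and 0.15, limma adjusted p = 0.0263), and those calls were lost in 12 and 9 of 16 alternatives, with adjusted p up to 0.196 and 0.173. For HK1 the loss came without any of ZC3H7A library 1 or 2 or the 3 ZC3H7B libraries, and the difference was 0.08 without ZC3H7A library 1. For PFKP it came without ZC3H7A library 1 or 2 or ZC3H7B library 2 or 3, at 0.11 to 0.15.

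PFKFB3 and PFKFB4 make fructose 2,6-bisphosphate, the strongest activator of phosphofructokinase, and both rose in the overexpressions. PFKFB3 was 1423, 1442 and 1402 in the controls, 3469, 3407 and 3142 with ZC3H7A and 2792, 2609 and 2694 with ZC3H7B. No 2 groups overlapped. The log2 fold change was 1.23 with ZC3H7A (SE 0.0473, limma adjusted p = 1.55e-09) and 0.92 with ZC3H7B (SE 0.0473, limma adjusted p = 1.99e-08), and the difference of 0.31 passed the test (SE 0.0473, limma adjusted p = 0.000245). Of its 36 nearest expressed genes, also on chromosome 10, 29 were above 0 with ZC3H7A (median 0.41) and 32 with ZC3H7B (median 0.47). PFKP lies near the same end of this chromosome, so these genes overlap the PFKP neighbours, and their part was not tested. PFKFB4 stood lower, at 114, 112 and 113 in the controls, 226, 201 and 202 with ZC3H7A and 160.1, 169.7 and 163 with ZC3H7B. It showed the same order of groups (difference between the overexpressions 0.35, SE 0.072, limma adjusted p = 0.00202). In DD neither passed the test: PFKFB3 was 2240.3, 2446 and 2623 in Parental and 2431, 2755 and 2589 in DD (95% interval -0.08 to 0.26 on the log2 scale).

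Among the 6 enzymes of lower glycolysis, which yield ATP and pyruvate, all rose with ZC3H7B, by 0.35 to 0.61 on the log2 scale, whereas 4 rose with ZC3H7A and the 2 enolases did not pass the test there. The shares of all genes that rose were 32.0% with ZC3H7B and 34.7% with ZC3H7A. ENO1, the general enolase, was 73610, 75761 and 76210 in the controls, 84436, 77443 and 71970 with ZC3H7A and 119021, 116573 and 108115 with ZC3H7B. The ZC3H7A libraries spread around the controls, and all ZC3H7B libraries lay above both other groups. ENO1 was lower with ZC3H7A than with ZC3H7B (limma log2 fold change -0.56 with SE 0.0548, adjusted p = 6.6e-06). ENO2, the neuronal enolase, was 3107, 3028 and 3177 in the controls, 3102, 3271 and 3029.6 with ZC3H7A and 4626, 4617 and 4342 with ZC3H7B, with the same separation (limma log2 fold change -0.53 with SE 0.0442, adjusted p = 1.7e-06 for ZC3H7A against ZC3H7B). Without ZC3H7A library 3, the small ENO1 difference from the control was called (0.11, limma adjusted p = 0.0411, within 0.00905 to 0.854 over 16 alternatives).

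ENO1 fell in DD, from 49873, 57714 and 72162 in Parental to 35845, 36571 and 32691 (limma log2 fold change -0.76 with SE 0.114, adjusted p = 0.000458). Parental library 1 was the lowest of its group and library 3 the highest, and all exceeded all DD values. Of the 40 nearest expressed genes on chromosome 1, all 40 were below 0 in DD against Parental, with a median log2 fold change of -0.50, and 38 of 40 were below 0 for ZC3H7A against ZC3H7B, with a median of -0.47. Over all expressed genes these medians were 0.05 and 0.03. The part of this stretch in the ENO1 values was not tested. ENO2, on chromosome 12, was 1641, 1785 and 2009 in Parental and 2166, 2244 and 2022 in DD (limma log2 fold change 0.25 with SE 0.085, adjusted p = 0.0467), a call lost in 10 of 15 alternatives (adjusted p 0.00212 to 0.159). Among these were leaving out any 1 library but Parental 3, with log2 fold changes of 0.18 to 0.29.

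GAPDH, the dehydrogenase often used as a reference gene, was not level in any comparison with a control. It was 25658, 26656 and 27159 in the controls, 42133, 38508 and 36214 with ZC3H7A and 40853, 40271 and 38086 with ZC3H7B. Both overexpression groups lay above the controls and overlapped each other (limma log2 fold change 0.55 with SE 0.0523, adjusted p = 1.28e-06 for ZC3H7A and 0.58, SE 0.0523, limma adjusted p = 1.23e-06 for ZC3H7B). In the depletion experiment it was lower in every DD library, at 62566, 60831 and 57901 against 73528, 80141 and 81976 in Parental (limma log2 fold change -0.38 with SE 0.0745, adjusted p = 0.00269). With the reads of its 58 pseudogene copies added, the DD value was -0.38, as without them.

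PGK1, which makes the first ATP of the pathway, was 10596, 10886 and 10765 in the controls, 15826, 15114 and 14295 with ZC3H7A and 15081, 14754 and 13949 with ZC3H7B. PKM, the pyruvate kinase of these cells, was 52651, 53755 and 53928, 82044, 75365 and 69286 and 77872, 76328 and 71190 in the same groups. For both genes the overexpression groups overlapped each other and lay wholly above the controls, by 0.49 and 0.44 for PGK1 and 0.50 and 0.49 for PKM on the log2 scale (limma adjusted p from 9.42e-07 to 7.93e-06). Of the 40 expressed genes nearest to PGK1 on chromosome X, 31 were below 0 with ZC3H7A (median -0.41) and 29 with ZC3H7B (median -0.38). Their part was not tested. PGAM1, a phosphoglycerate mutase, rose by 0.47 with ZC3H7A and 0.35 with ZC3H7B. None of the 3 passed the test in DD. Without the third Parental library, PGK1 (0.33, limma adjusted p = 0.00062), PKM (0.32, 0.000916), PGAM1 (0.18, 0.0207), HK1 (0.23, 0.0201) and PFKL (0.21, 0.0113) were called higher in DD. That library held 11666 for PGK1 and 57511 for PKM, above all DD values, where the other Parental libraries held 8066 and 9171, and 38214 and 43719. The adjusted p of these 5 genes in DD ran from 0.00062 to 0.886 over their alternatives.

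At the end of the pathway the lactate dehydrogenase subunits moved apart. LDHA, the subunit that favours lactate formation, was 11325, 11847 and 11857 in the controls, 18813, 16797 and 17625 with ZC3H7A and 14966, 14897 and 14360 with ZC3H7B. No groups overlapped, and ZC3H7A was highest (limma log2 fold change 0.60 with SE 0.0443, adjusted p = 1.59e-07 against control, and 0.27, SE 0.0443, limma adjusted p = 0.000428 against ZC3H7B). Of the 40 expressed genes nearest to LDHA on chromosome 11, 28 were below 0 with ZC3H7A (median -0.25) and 28 with ZC3H7B (median -0.15). Their part was not tested. LDHB, the heart-type subunit, was 32788, 34997 and 34139 in the controls, 35056, 34913 and 36676 with ZC3H7A and 34668, 36186 and 35953 with ZC3H7B, and the groups overlapped. Its difference from the control did not pass the test, with 95% intervals of -0.02 to 0.15 and -0.01 to 0.15 on the log2 scale. It was called higher in 4 of 16 alternatives in each overexpression (TMM scaling 0.14 and 0.16, limma adjusted p = 0.00561 and 0.00253, and also edgeR, DESeq2 and the codon trend removed), while scaling to library totals turned its sign (-0.04 and -0.01, not called), over ranges of 5.65e-07 to 0.387 and 3.26e-06 to 0.738. In DD neither subunit was called (LDHA 0.01, 95% interval -0.15 to 0.18, and LDHB -0.06, 95% interval -0.21 to 0.09).

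PDK1, a kinase that holds back pyruvate dehydrogenase and so keeps pyruvate from mitochondrial oxidation, fell while LDHA rose. It was 1184, 1287 and 1248 in the controls, 918, 743 and 1021 with ZC3H7A and 871, 839 and 831 with ZC3H7B. Every overexpression library lay below every control (limma log2 fold change -0.48 with SE 0.0912, adjusted p = 0.000398 for ZC3H7A, and -0.55, SE 0.0912, limma adjusted p = 0.000181 for ZC3H7B). Of the 40 expressed genes nearest to PDK1 on chromosome 2, 30 were below 0 and 10 above with ZC3H7A (median -0.38). With ZC3H7B 33 were below and 7 above (median -0.37), and their part was not tested. In Parental PDK1 was 1743, 1745 and 1545 and in DD 1437, 1393 and 1498. These groups did not overlap, but the difference missed the threshold (limma log2 fold change -0.22 with SE 0.0772, adjusted p = 0.0539) and was called in 5 of 15 alternatives (adjusted p 0.00621 to 0.169), one of them leaving out Parental library 3 (-0.27).

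**Figure D2:**
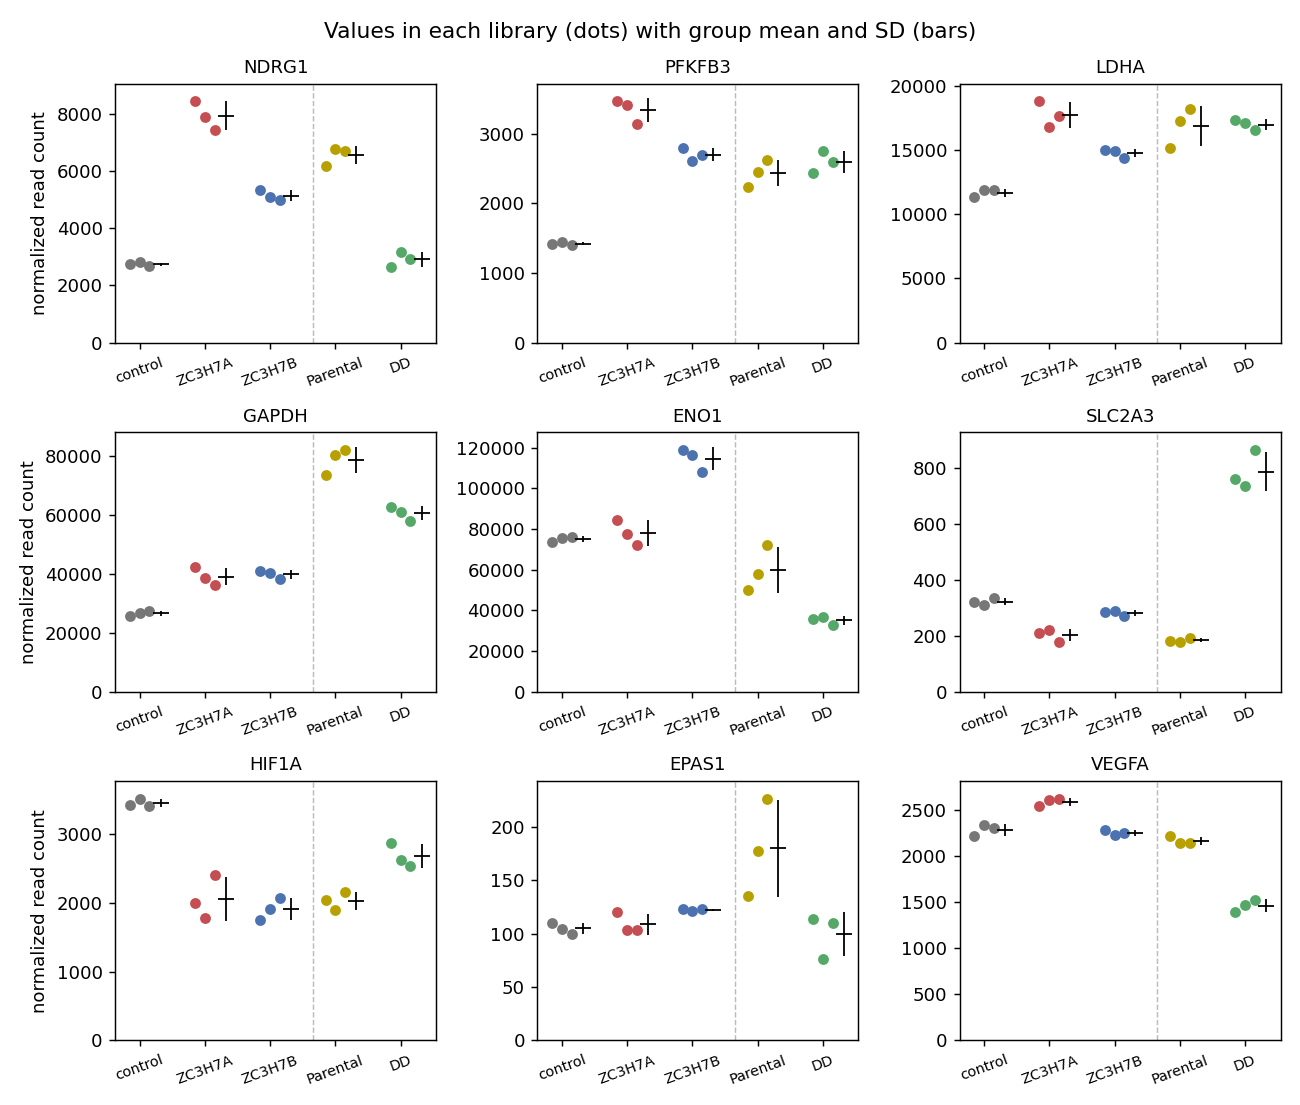
Normalized read counts of 9 members in each of the 15 libraries (dots), with group means and SD, and a dashed line between the experiments. NDRG1 and GAPDH are above the control in both overexpressions and lower in DD than in Parental, HIF1A and SLC2A3 are the reverse, and ENO1 is raised in the ZC3H7B libraries.

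HIF1A, which encodes the alpha subunit of HIF-1, was lower in both overexpressions and higher in DD. It was 3428, 3522 and 3412 in the controls, 2003, 1779 and 2411 with ZC3H7A and 1748, 1918 and 2068 with ZC3H7B. The overexpression groups overlapped each other and lay well under the controls, at 1.69-fold and 1.81-fold lower (limma log2 fold change -0.75 with SE 0.0921, adjusted p = 1.12e-05 for ZC3H7A, and -0.86, SE 0.0921, limma adjusted p = 5.37e-06 for ZC3H7B). Of the 40 expressed genes nearest to HIF1A on chromosome 14, 27 were below 0 and 13 above with ZC3H7A (median -0.46). With ZC3H7B 29 were below and 11 above (median -0.29), and in DD 13 were below and 27 above (median 0.10). Their part was not tested. In Parental HIF1A was 2052, 1893 and 2155 and in DD 2880.2, 2625 and 2540.3 (limma log2 fold change 0.40 with SE 0.077, adjusted p = 0.00233). All DD libraries lay above all Parental libraries. RNA reads give no measure of HIF-1α protein, which is set largely by its hydroxylation.

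EPAS1, for the HIF-2α subunit, had 0.0307 reads per read of HIF1A in the controls and changed in other directions. It was 110.3, 105 and 100.0 in the controls, 119.9, 103 and 103 with ZC3H7A and 123, 121 and 123 with ZC3H7B. The ZC3H7A libraries overlapped the controls, and the ZC3H7B libraries lay just above both (limma log2 fold change 0.22 with SE 0.0849, adjusted p = 0.0374). That call was lost in 8 of 16 alternatives (adjusted p 0.00885 to 0.877), among them leaving out ZC3H7B library 1, 2 or 3 or control library 2 or 3 (log2 fold change 0.18 to 0.22). In DD EPAS1 was 114, 75.8 and 109.5 against 135, 178 and 227 in Parental (limma log2 fold change -0.84 with SE 0.22, adjusted p = 0.0136), and without DD library 2 or Parental library 2 it was not called (-0.65 and -0.83, limma adjusted p = 0.0557 and 0.0541, within 0.00506 to 0.0557 over 15 alternatives).

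Of the prolyl hydroxylases, EGLN1 (PHD2), the main oxygen sensor, did not pass the test against the control in either overexpression or in DD (0.03, -0.12 and -0.00 on the log2 scale). With ZC3H7B it was called lower in 4 of 16 alternatives: with a replicate block (limma adjusted p = 0.0376), with only the 2 groups fitted (0.00663), scaled to library totals (-0.20, 0.00505) and with the codon trend removed (-0.31, 0.000378), over a range up to 0.655. EGLN3 (PHD3), itself a HIF target, was 320.2, 322 and 341 in the controls, 405, 395 and 345 with ZC3H7A and 357, 391 and 362 with ZC3H7B. Both rises were small (0.22, limma adjusted p = 0.0147, and 0.18, limma adjusted p = 0.0436) and were lost in 4 and 9 of 16 alternatives, with adjusted p up to 0.322 and 0.753. With ZC3H7A the loss came without ZC3H7A library 1 or control library 1 (0.17 and 0.20), and with ZC3H7B without any 1 library (0.13 to 0.20). In DD it fell from 319.7, 431 and 438 in Parental to 280.3, 206 and 244 (limma log2 fold change -0.70 with SE 0.155, adjusted p = 0.00538), with no overlap.

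Of the other HIF targets, 4 of 10 tested rose with ZC3H7A, 4 fell and 2 did not pass, and with ZC3H7B 3 rose, 4 fell and 3 did not pass. These shares are near those of all genes (34.7% higher and 41.2% lower with ZC3H7A, 32.0% and 37.6% with ZC3H7B). NDRG1, a stress-responsive protein named for its regulation during differentiation, showed the largest rise of any member with ZC3H7A. It was 2730.1, 2804 and 2693 in the controls, 8439.7, 7875 and 7428 with ZC3H7A and 5339, 5078 and 4966 with ZC3H7B. ZC3H7A stood highest, ZC3H7B between, and no groups overlapped (limma log2 fold change 1.53 with SE 0.0496, adjusted p = 6.59e-10 for ZC3H7A, 0.90, SE 0.0496, limma adjusted p = 2.94e-08 for ZC3H7B, and 0.62, SE 0.0496, limma adjusted p = 1.16e-06 between them). In DD it fell to 2644, 3170.0 and 2919.5 from 6172, 6749.9 and 6690.3 in Parental, 2.25-fold lower (limma log2 fold change -1.17 with SE 0.0773, adjusted p = 1.05e-06). The median over the 40 nearest expressed genes was 0.47 with ZC3H7A, 0.09 with ZC3H7B and 0.19 in DD on the log2 scale. For ZC3H7A against ZC3H7B it was 0.47. The part of these genes was not tested.

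ADM, the vasodilator adrenomedullin, was 357, 370.3 and 385 in the controls, 538, 563 and 512 with ZC3H7A and 462, 493 and 482 with ZC3H7B. The 3 groups did not overlap (0.53, SE 0.058, limma adjusted p = 4.12e-06 for ZC3H7A, and 0.37, SE 0.058, limma adjusted p = 0.000117 for ZC3H7B). It also rose in DD, from 395, 446 and 425 to 564, 614 and 613 (limma log2 fold change 0.50 with SE 0.097, adjusted p = 0.00241). VEGFA, the main growth factor for blood vessels, was 2212, 2336 and 2295 in the controls, 2534, 2601 and 2619 with ZC3H7A and 2283, 2220.1 and 2243 with ZC3H7B. Only the ZC3H7A libraries stood above the controls (limma log2 fold change 0.18 with SE 0.0396, adjusted p = 0.00124), and ZC3H7A was higher than ZC3H7B (0.20, SE 0.0396, limma adjusted p = 0.00145). With values scaled to library totals the ZC3H7A rise was 0.07 and not called (limma adjusted p = 0.109, within 1.18e-05 to 0.751 over 16 alternatives). In DD VEGFA was 1392, 1466 and 1523 against 2211, 2135 and 2142 in Parental (limma log2 fold change -0.57 with SE 0.0697, adjusted p = 0.00011), with every DD library far below.

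The mitophagy receptors BNIP3 and BNIP3L differed from each other. BNIP3L was 1279.9, 1330.2 and 1379 in the controls, 1012, 1038 and 1206 with ZC3H7A and 1007, 989.7 and 1013 with ZC3H7B, below the controls in every overexpression library (-0.30, SE 0.0636, limma adjusted p = 0.00103, and -0.41, SE 0.0636, limma adjusted p = 0.000114). In DD it was 1719, 1623 and 1708 against 1492, 1418 and 1261 in Parental (limma log2 fold change 0.28 with SE 0.0806, adjusted p = 0.0217), a call lost without DD library 1 (0.26, limma adjusted p = 0.0916), DD library 3 (0.27, 0.0774) or Parental library 2 (0.29, 0.0527), over a range of 0.0104 to 0.0916. BNIP3 rose with ZC3H7A (limma log2 fold change 0.33 with SE 0.0573, adjusted p = 0.000219) and did not pass the test with ZC3H7B (0.12, limma adjusted p = 0.0917, called in 4 of 16 alternatives, range 0.00756 to 0.891). It was higher with ZC3H7A than with ZC3H7B (0.21, SE 0.0573, limma adjusted p = 0.00984).

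ANKRD37, a small ankyrin-repeat protein, was scarce and fell in both overexpressions. It was 66.0, 56.1 and 57.6 in the controls, 33.4, 29.4 and 30.2 with ZC3H7A and 44.5, 28.5 and 38.5 with ZC3H7B. All overexpression libraries lay below all controls (limma log2 fold change -0.93 with SE 0.156, adjusted p = 0.000161 for ZC3H7A, and -0.69, SE 0.156, limma adjusted p = 0.0017 for ZC3H7B). P4HA1, a collagen prolyl 4-hydroxylase subunit, fell alike in both (-0.29 and -0.29 on the log2 scale), whereas its relative P4HA2 was not called in any comparison. The histone demethylase KDM3A was called in opposite directions, -0.12 with ZC3H7A (limma adjusted p = 0.0353) and 0.15 with ZC3H7B (limma adjusted p = 0.0139), and the direct difference passed the test (limma log2 fold change -0.27 with SE 0.0481, adjusted p = 0.000637). The 2 separate calls were lost in 10 and 4 of 16 alternatives, with adjusted p up to 0.379 and 0.234, while the direct difference was called in all 16. With ZC3H7A the loss came without ZC3H7A library 1 or 2 or any control library (-0.10 to -0.13), and with ZC3H7B without ZC3H7B library 2 or 3 or control library 3 (0.13 to 0.14).

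BHLHE40, a repressor of the circadian clock, fell with ZC3H7B (-0.17, limma adjusted p = 0.0124), and ZC3H7A was higher than ZC3H7B (0.19, SE 0.0532, limma adjusted p = 0.0111). The ZC3H7B call was lost in 5 of 16 alternatives (adjusted p up to 0.270), among them leaving out ZC3H7B library 3 (-0.14) or control library 1 (-0.15), and the difference without ZC3H7B library 3 had a limma adjusted p of 0.053 (range 0.00336 to 0.053). Of the remaining calls between the overexpressions, EGLN1 (0.15, limma adjusted p = 0.0322) and ADM (0.17, limma adjusted p = 0.0359) were lost in 9 and 12 of 16 alternatives, with adjusted p up to 0.267 and 0.368. For EGLN1 these included leaving out ZC3H7A library 1 or ZC3H7B library 1 or 2 (0.12 to 0.16), and for ADM any library but ZC3H7A 3 (0.13 to 0.19). CA9, the carbonic anhydrase that many use as a marker of hypoxia, had 1, 6 and 1 reads over the control, ZC3H7A and ZC3H7B groups, 0 in Parental and 5 in DD. A count of 0 allows up to 3 reads, and CA9 was not detectable as changed at this depth.

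The depletion and overexpression calls, which share no libraries, were set side by side over the 36 members tested in both. Of the 13 members called in DD, 3 rose both with ZC3H7A and in DD (ADM, ALDOC and SLC2A1), 4 rose with ZC3H7A and fell in DD (EGLN3, GAPDH, NDRG1 and VEGFA) and 3 fell with ZC3H7A and rose in DD (BNIP3L, HIF1A and SLC2A3). With ZC3H7B, 4 rose in both, the former 3 and ENO2, 5 rose and then fell in DD (EGLN3, GAPDH, NDRG1, ENO1 and EPAS1), and the same 3 fell and rose in DD. No member fell both in DD and with ZC3H7A or ZC3H7B, where 6.46% and 5.25% of all genes tested in both experiments did. Over the 16165 genes tested in both experiments, 7.91% rose with ZC3H7A and in DD, 5.82% rose and then fell in DD and 5.78% fell and then rose, and with ZC3H7B these shares were 6.85%, 6.30% and 5.56%. Several of the counted calls are lost when 1 library is left out: SLC2A3 and EGLN3 with ZC3H7B in 6 of 6 cases, EPAS1 with ZC3H7B in 5 of 6, EGLN3 with ZC3H7A in 2 of 6, and in DD ENO2 in 5, ALDOC and BNIP3L in 3 and EPAS1 in 2 of 6. The cells, libraries and depth differed between the experiments, and the difference between them was not tested.

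Ratios between related members within each library do not depend on how libraries are scaled. A ratio does not show which member of a pair shifted, and the members' own values are given above. There were 0.344 LDHA reads per LDHB read in the controls, 0.499 with ZC3H7A and 0.414 with ZC3H7B (geometric means, n = 3), with no overlap between groups. On the log2 scale, with SD over 3 libraries, SLC2A3 to SLC2A1 went down from -2.92 ± 0.0772 to -4.21 ± 0.0763 with ZC3H7A and -3.62 ± 0.0307 with ZC3H7B, and up in DD from -4.60 ± 0.0181 to -2.89 ± 0.124. PFKP to PFKL went from -0.03 ± 0.0058 to 0.70 ± 0.0261 and 0.37 ± 0.0519. The DD ratio of ENO2 to ENO1 was 1.01 above that of Parental (-4.03 ± 0.0170 against -5.04 ± 0.122), while the same ratio overlapped between the 3 overexpression groups. EPAS1 to HIF1A went from -5.03 ± 0.0719 to -4.23 ± 0.268 with ZC3H7A and -3.95 ± 0.124 with ZC3H7B, and was lower in DD than in Parental, at means of -4.76 and -3.52. These ratios were not tested.

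**Figure D3:**
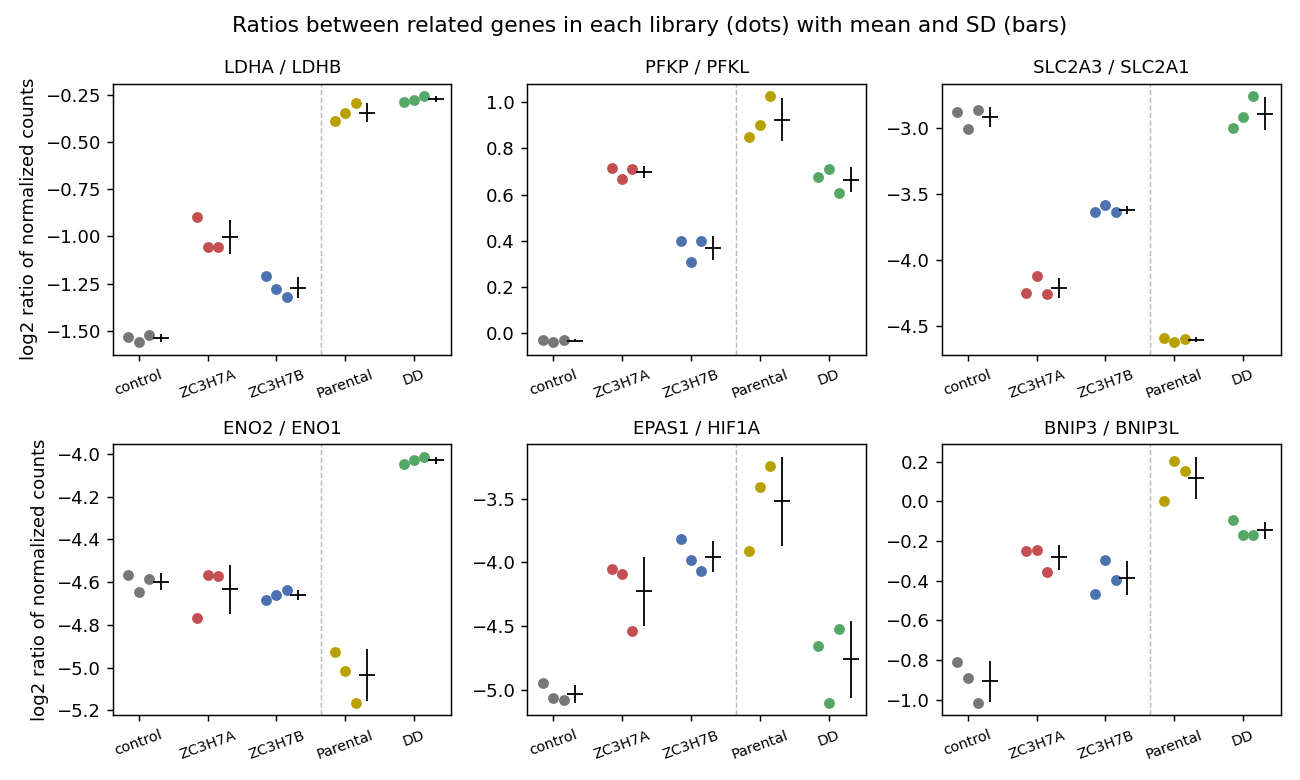
Log2 ratios of normalized read counts between 6 pairs of related members in each library (dots), with group means and SD, and a dashed line between the experiments. SLC2A3 to SLC2A1 is lowest with ZC3H7A among the overexpression groups and higher in DD than in Parental, and LDHA to LDHB is higher in both overexpressions than in the control.

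A wider list held 77 related genes that are not members. With ZC3H7A, 28 of 69 tested rose and 23 fell (34.7% and 41.2% of all genes), and with ZC3H7B 27 rose and 24 fell (32.0% and 37.6%), with medians of 0.01 and 0.02. In DD 14 rose and 17 fell (14.7% and 14.8%), and between the overexpressions 17 were higher and 14 lower with ZC3H7A (23.9% and 20.4%). The role counts that follow are to be read against the same shares, and none was tested as a group. The pentose phosphate pathway, which makes NADPH and ribose from glucose, had 6 of 7 genes higher in each overexpression, and in DD 4 of 7 fell and none rose. PGD, its second dehydrogenase, rose by 0.72 with ZC3H7B (SE 0.0489, limma adjusted p = 1.32e-07) and was -0.51 for ZC3H7A against ZC3H7B (SE 0.0489, limma adjusted p = 5.83e-06). PGD lies on chromosome 1 like ENO1, and of its 40 nearest expressed genes 38 were below 0 for ZC3H7A against ZC3H7B (median -0.49), 39 in DD (median -0.46) and 7 with ZC3H7B (median 0.21). Their part in the PGD values was not tested. Of 13 regulators of HIF, 8 rose and 1 fell in each overexpression and in DD. Among 10 further glycolysis enzymes tested, 2 rose in each overexpression and 6 fell with ZC3H7A and 5 with ZC3H7B.

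Of 26 further HIF targets tested, 11 fell and 7 rose with ZC3H7A, 13 fell and 6 rose with ZC3H7B, and 9 fell and 1 rose in DD. DDIT4, an inhibitor of mTORC1, rose with ZC3H7A (limma log2 fold change 1.05 with SE 0.0573, adjusted p = 1.5e-08) and fell in DD (limma log2 fold change -0.63 with SE 0.0722, adjusted p = 6.47e-05). The glycogen genes split: GYS1, glycogen synthase, rose by 0.97 with ZC3H7A (limma adjusted p = 3.1e-08), GBE1, the branching enzyme, was -0.91 (limma adjusted p = 3.71e-08), and PYGL, glycogen phosphorylase, was -0.66 in DD (limma adjusted p = 2.06e-05). WSB1, a ubiquitin ligase adaptor, fell with both (-0.94 and -0.85, limma adjusted p = 6.21e-09 and 2.34e-08). ERO1A, an oxidase of the endoplasmic reticulum, fell with ZC3H7B (limma log2 fold change -1.41 with SE 0.061, adjusted p = 6.47e-09) and was 1.08 higher with ZC3H7A than with ZC3H7B (limma adjusted p = 8.78e-08), as was LOX, the collagen crosslinker, by 1.15 (limma adjusted p = 7.67e-07). INSIG2, a regulator of sterol synthesis, was -1.23 with ZC3H7B (limma adjusted p = 8.94e-08), and MPC1, a carrier of pyruvate into mitochondria, was 0.43 higher with ZC3H7A than with ZC3H7B (limma adjusted p = 1.04e-05). In DD, HMOX1, the heme oxygenase, was -1.25 and TIGAR, which lowers fructose 2,6-bisphosphate, 0.74 (limma adjusted p = 0.000279 and 0.000334).

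Because the series concerns codons, the members' coding sequences were compared by the share of codons that end in A or T. It ran from 12.7% in SLC16A3, 16.3% in PFKL and 20.9% in SLC2A1 to 64.6% in P4HA1 and 67.5% in HIF1A, with a median of 34.3% over the 37 members tested in the overexpression experiment and 39.9% over 13048 tested genes with a coding sequence. The first 40 codons of 2 members that fell and 2 that rose in both overexpressions show this contrast in GENCODE 29 coding sequences, with the last base of a codon in capitals where it is A or T:
HIF1A: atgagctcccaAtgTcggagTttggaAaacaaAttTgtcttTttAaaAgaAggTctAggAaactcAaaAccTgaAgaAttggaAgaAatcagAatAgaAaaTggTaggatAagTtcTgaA
P4HA1: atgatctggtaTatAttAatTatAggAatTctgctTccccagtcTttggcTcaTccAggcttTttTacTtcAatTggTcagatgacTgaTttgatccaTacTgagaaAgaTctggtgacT
SLC2A1: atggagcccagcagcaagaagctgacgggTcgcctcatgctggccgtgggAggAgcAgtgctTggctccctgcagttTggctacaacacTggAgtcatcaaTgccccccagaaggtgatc
PFKL: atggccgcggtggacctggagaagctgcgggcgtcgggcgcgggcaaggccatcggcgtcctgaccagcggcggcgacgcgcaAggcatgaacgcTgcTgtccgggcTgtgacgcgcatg

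In these stretches 29 and 25 of 40 codons end in A or T in HIF1A and P4HA1, and 9 and 4 of 40 in SLC2A1 and PFKL. Across the 37 members, the share correlated with the log2 fold change with Pearson's r = -0.52 for ZC3H7A and -0.56 for ZC3H7B, and across the 13048 genes with r = -0.45 and -0.41. In DD r was 0.16 over 36 members and 0.02 over 12700 genes. These are descriptions over genes of the same libraries, which also share base composition with this measure, and genes are not independent replicates. Of the 7 members above 50%, 5 fell with ZC3H7A (HIF1A, P4HA1, KDM3A, ANKRD37 and PDK1), LDHA rose and LDHB was not called, where 70.8% of all genes above 50% fell and 12.1% rose. Of the 15 members at or under 30%, 12 rose and 1 fell, SLC16A3, where 62.4% of all such genes rose and 18.3% fell. With ZC3H7B the counts were 4 lower and 2 higher of 7, where 64.2% of all genes above 50% fell and 13.8% rose. At or under 30% they were 13 higher and 1 lower of 15, where 53.1% of all such genes rose and 18.8% fell. In DD they were 0 lower and 1 higher of 7 (11.9% and 20.4% of all such genes). At or under 30% they were 4 lower and 2 higher of 14 (17.9% and 19.8%). LDHA, at 53.2%, and SLC16A3, at 12.7%, thus changed against the direction most genes of their share took.

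**Figure D4:**
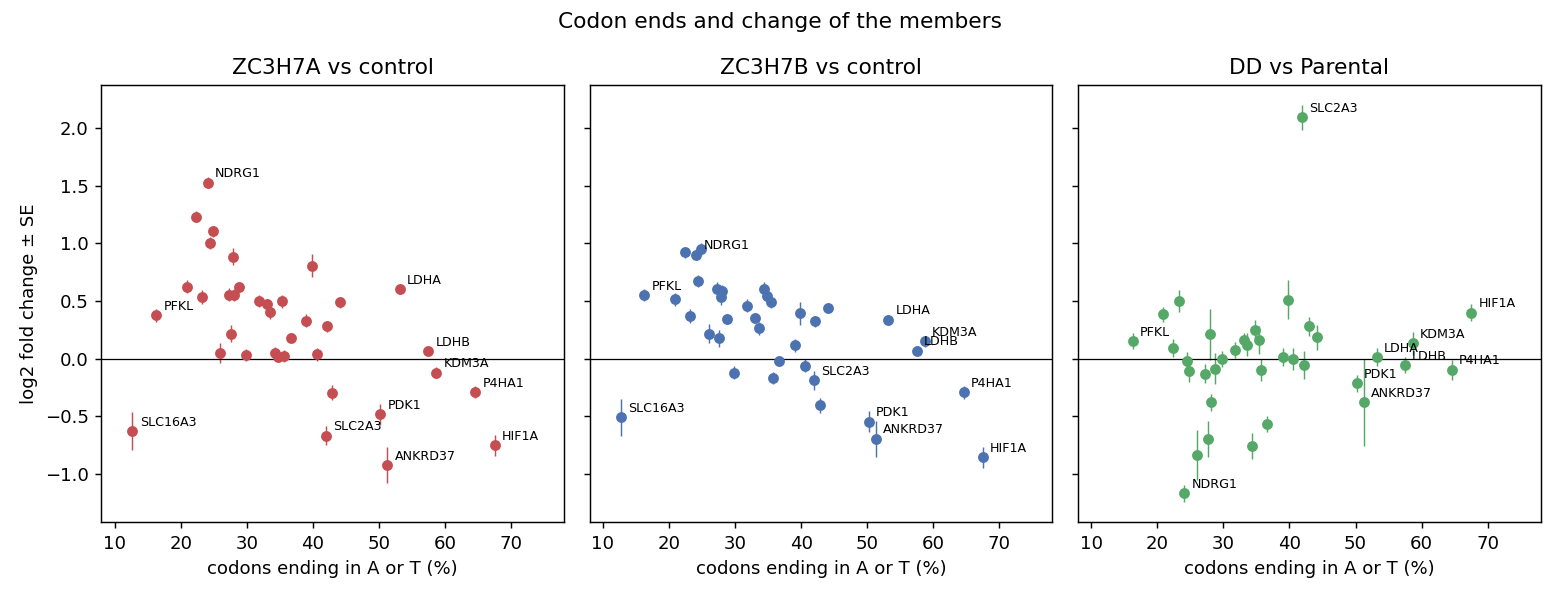
Log2 fold change ± SE of each tested member against the percentage of its codons that end in A or T, in ZC3H7A against control, ZC3H7B against control and DD against Parental. HIF1A and P4HA1, with the highest shares, lie below 0 in both overexpressions, SLC16A3 lies below 0 at the lowest share, and the correlation in DD is weak (r = 0.16).

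As an alternative chosen after seeing the data, the trend of each library with this share was removed over all genes before testing. The member counts with ZC3H7A and ZC3H7B were then 22 and 24 higher and 10 lower in each. Over all 13048 genes in this fit, 5282 were higher and 4970 lower with ZC3H7A, and 5134 and 4758 with ZC3H7B. HIF1A changed from -0.75 to 0.01 with ZC3H7A (SE 0.0327, limma adjusted p = 0.69) and from -0.86 to -0.24 with ZC3H7B (limma adjusted p = 1.75e-05). P4HA1 turned to 0.34 and 0.23 (limma adjusted p = 0.000514 and 0.00979), KDM3A to 0.26 with ZC3H7A, and the PFKL rise with ZC3H7A was no longer called (limma adjusted p = 0.973). PDK1 (-0.38 and -0.47), ANKRD37 (-0.79 and -0.59) and SLC16A3 (-1.01 and -0.74) still fell, and NDRG1 (1.21 and 0.69), PFKFB3 (0.89 and 0.70) and LDHA (0.80 and 0.49) still rose.

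The promoters of the members were searched for the core of the hypoxia response element, ACGTG or GCGTG on either strand, in RefSeq windows of 300 bases around gene starts on GRCh38.p14. CACGTG reads as ACGTG on both strands and counts as 2 matches. Windows were found for 34 members. At least 1 match was present in 42 of their 62 windows (67.7%) and in 48.4% of all 35116 windows, and the members' windows were richer in G and C (median 68.3% against 58.7%). With ZC3H7A, 18 of 20 rising members with a window and all 6 falling ones held a match, as did 6 of the 7 not called. With a match in 31 of 34 members, its presence could not separate these groups. The 250 bases before the start are shown for 2 members that rose, LDHA and PGK1, and 2 that fell, ANKRD37 and PDK1, in both overexpressions, with matches in capitals:
LDHA, chr11:18394313-18394562, plus strand: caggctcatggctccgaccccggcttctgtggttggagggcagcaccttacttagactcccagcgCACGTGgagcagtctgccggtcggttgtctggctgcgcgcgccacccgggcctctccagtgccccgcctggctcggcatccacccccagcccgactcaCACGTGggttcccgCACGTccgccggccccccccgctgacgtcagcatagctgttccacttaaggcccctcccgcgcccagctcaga
PGK1, chrX:78103998-78104247, plus strand: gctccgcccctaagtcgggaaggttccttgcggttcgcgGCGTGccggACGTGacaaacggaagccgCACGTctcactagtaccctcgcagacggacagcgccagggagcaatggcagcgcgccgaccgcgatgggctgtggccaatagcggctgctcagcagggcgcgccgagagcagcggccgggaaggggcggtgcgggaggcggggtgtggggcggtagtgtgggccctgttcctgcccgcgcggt
ANKRD37, chr4:185396591-185396840, plus strand: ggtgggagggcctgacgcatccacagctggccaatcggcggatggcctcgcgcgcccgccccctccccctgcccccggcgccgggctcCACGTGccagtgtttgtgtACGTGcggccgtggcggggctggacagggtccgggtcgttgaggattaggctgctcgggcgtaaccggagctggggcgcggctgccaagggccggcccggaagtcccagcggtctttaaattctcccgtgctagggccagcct
PDK1, chr2:172555840-172556089, plus strand: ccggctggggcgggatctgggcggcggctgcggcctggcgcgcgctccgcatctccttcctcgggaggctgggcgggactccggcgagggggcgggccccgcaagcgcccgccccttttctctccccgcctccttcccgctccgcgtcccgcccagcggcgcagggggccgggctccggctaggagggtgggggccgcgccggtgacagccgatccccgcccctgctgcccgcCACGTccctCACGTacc

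These stretches hold 5, 3, 3 and 2 matches. Where a member had several starts, the window with the most matches was shown. The other LDHA window held 1 match and the other PDK1 window 0. A match is a run of letters and does not show binding by HIF.

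Levels between members were compared per kb of annotated exon, counting every exon base over all annotated transcripts of a gene. The transcripts made in these cells can be shorter, and the SDs over libraries do not cover this. In the controls ENO1 stood highest, at 14252 ± 263 normalized reads per kb (SD, n = 3), then LDHB at 11389 ± 373, GAPDH at 8887 ± 256 and ALDOA at 8288 ± 233, and no 2 neighbours among these 4 lay within their SDs of each other. Among the phosphofructokinase genes the order was PFKP (1162 ± 5.65), PFKL (644 ± 5.65) and PFKM (412 ± 4.55), and HIF1A stood at 671 ± 11.5 against 14.4 ± 0.707 for EPAS1. In Parental GAPDH led at 26350 ± 1490.5, then ENO1 at 11356 ± 2143 and ALDOA at 9304 ± 966, which lay within an SD of each other. Antisense genes of members took under 1% of the member's reads, at most 0.860% for SLC2A1-AS1 and 0.708% for BHLHE40-AS1, and reads from overlapping strands could not be told apart where the kit does not mark strand.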

How the data were processed

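RNA-seq of 15 libraries was analysed from the deposited table of 55773 genes. Its values are a signal, normalized read counts, which the authors made with STAR 2.7.10b, HTSeq and DESeq2 on hg19, per the submitters' processing notes. The notes give no roles or settings and name no gene annotation. Dividing by what 1 read was worth in a library turned 100% of the deposited signal values into whole numbers (tolerance 0.01), so whole reads were recovered.

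The table was tested with limma 3.58.1 (R 4.3.3, mean-variance trend) on log2(value + 1), a scale that understates the change of low genes, over all genes that reached a value of 10 in 3 or more libraries of the fit. The 9 overexpression libraries shared a fit, and DD against Parental had its own. Calls required a two-sided Benjamini-Hochberg adjusted p under 0.05 over all genes tested. edgeR 4.0.16 and DESeq2 1.42.0 on whole reads, other filters, pseudocounts and scalings, a replicate block and leaving out each library were alternatives. Tests were checked on simulated data.

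The members and lists were chosen with earlier results of these data known. Values in every library are given for up to 3 called members with the largest change per role and comparison with a control, members called in opposite directions in overexpression and depletion, and HIF1A, EPAS1, PFKFB3, LDHA, LDHB and GAPDH. Up to 4 genes of the wider list with the lowest adjusted p are named per comparison. Codons, exon lengths and gene order came from GENCODE 29 on GRCh38, matched by symbol, with codons for 38 of 38 members. Neighbours are up to 20 genes on each side with a mean of at least 100, and they are given for some members only. Library totals were 12.2 to 57.6 M reads, and low counts limit CA9 and SLC16A3.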

Additional observations from a re-analysis of the deposited data

How the results depend on the processing

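Over all alternatives, 2140 member results kept their side of the threshold, and those called also kept their direction. Results called in neither fit were not checked for direction. Another 119 lost a call and 42 gained one with the same sign, and 11 changed sign with a call in either or both fits. Of the counts, 122 stayed within 1.5 times while 4 did not. With DESeq2, 5 members were lower with ZC3H7B, where 5719 of all 17673 genes were. With the codon trend removed, chosen after seeing the data, 8 members were lower for ZC3H7A against ZC3H7B. In that fit P4HA1 (0.34 with ZC3H7A and 0.23 with ZC3H7B) and KDM3A (0.26 with ZC3H7A) were called opposite to their main call. HIF1A with ZC3H7A (0.0147) and EGLN3 (-0.0643 with ZC3H7A and -0.0211 with ZC3H7B) lost their call as the sign turned. With ZC3H7A, ENO1 (-0.15), ENO2 (-0.18), EPAS1 (-0.25), EGLN1 (-0.23) and BHLHE40 (-0.16) were called lower, where the main fit had not called them. Members higher in DD ranged from 4 (without DD library 1) to 12 (without Parental library 3) with 1 library left out. Over all genes, 2716 were higher in DD, 1583 without DD library 1 and 3527 without Parental library 3. The cause was not tested. A replicate block gave 22 members higher and 8 lower with ZC3H7A, 24 and 9 with ZC3H7B, 14 and 5 between them and 6 and 6 in DD. Over all genes it gave 6158 and 7324, 5678 and 6704, 4411 and 3890, and 2168 and 2374 in the same order. In the overexpression experiment, libraries with the same number correlated by -0.06 to 0.30 (2 of 9 pairs over 0.1). Those with different numbers correlated by -0.26 to 0.17 (1 of 18 pairs). In the depletion experiment the ranges were -0.05 to -0.01 (0 of 3) and -0.05 to 0.07 (0 of 6). The highest pair was ZC3H7A library 3 with ZC3H7B library 3. The labels do not say whether a number pairs libraries, and these values do not settle it. Depth limits CA9 and, in DD, SLC16A3. With 3 libraries a group, the DD calls of ALDOC, ENO2, EPAS1 and BNIP3L depend on single libraries.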

Other observations

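Pseudogene copies of the members, named by symbol plus P and a number, took different shares of reads in the experiments. The 4 copies of TPI1 had 43.3% of the TPI1 value in the depletion libraries and 1.88% in the overexpression libraries, the 58 copies of GAPDH 16.2% and 0.883%, the 6 copies of LDHA 6.52% and 0.969%, and the single copy of HK2 4.45% and 0.401%. PGAM1 went the other way: its 13 copies had 0.648% and 2.51%, and PGAM1 itself was 1178, 1271 and 1278 in the controls and 8182, 8742 and 8727 in Parental. Sums of member and copies moved the DD value by at most 0.03 on the log2 scale for any member: TPI1 changed from 0.07 to 0.09 and SLC2A3 from 2.09 to 2.06. The experiments differ in cells, protocol and read depth, which cannot be told apart here.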
